A study of Mus musculus with 3 samples.

Results

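Among the nuclei of mouse brown adipose tissue (BAT), 1577 of 11091 endothelial nuclei carried several transcripts of interferon-induced genes, out of 36281 nuclei that passed the filters and 44897 barcodes in all. An endothelial nucleus had at least 2 UMIs (unique molecular identifiers, each standing for 1 captured transcript) of Pecam1, Flt1, Kdr, Ptprb, Cyyr1 and Adgrl4 together. It also had at least 4 times as many of these as of the adipocyte genes Adipoq, Plin1, Pparg, Cidea and Ppara, and as of the pericyte genes Pdgfrb, Notch3, Abcc9 and Kcnq5. Members were the endothelial nuclei with 3 or more UMIs, summed, of Ifit1, Ifit2, Gm4070, Gvin1, Oasl2, Iigp1, Isg15, Tgtp2, Rsad2 and Gbp7. They were set beside the 5708 endothelial nuclei in which this sum was 0, called comparison nuclei here. Members and comparison nuclei were chosen by their measured UMIs of these genes, so every difference between members and comparison nuclei is given as a description.

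The study digested interscapular BAT, kept the layer that floats, in which brown adipocytes (BAs) carry pieces of vessels with them, isolated its nuclei, sorted them by a DNA dye and captured their RNA on the BD Rhapsody whole-transcriptome platform. Wild-type adult mice labelled as strain C57Bl6 (C57BL/6J in the methods) gave 1 library each for non-treatment, sham operation and denervation, the cutting of the sympathetic nerves to BAT. The methods give an age of 8 weeks. The study's legends give 20 mice each for the untreated and the denervated experiment, without saying how they were combined. For the denervated tissue they also give a cut on 1 side, tamoxifen administration and sampling at day 3. The number of mice of the sham library is not given in the sources used here. The study does not say whether its tissue came from the uncut side of the denervated mice. A figure legend of the study describes that side as sham-operated, and other panels show a separate sham-operated group. Whether the sham and denervated libraries share mice is thus not known. The file header of the denervated library carries a run name with the letters nKO, which does not match its label of wild type and denervation. The label was followed, and every denervated value carries this doubt.

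With 1 library per group there was no replicate spread and no test was made, and a condition cannot be told apart from its library. Values are given in the order untreated, sham and denervated. Intervals are exact 95% intervals that cover counting error only. The members held 585389, 730105 and 121091 UMIs, with a median of 837, 804 and 512 UMIs per nucleus, and the comparison nuclei were shallower, with medians of 621, 484 and 382. Mitochondrial genes took 10.4%, 14.6% and 5.07% of the members' UMIs and 9.84%, 13.4% and 5.86% of those of the comparison nuclei. The libraries shared 251 to 278 cell barcodes pairwise, and 0 barcodes of members.

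Interferons are cytokines, and cells release those of type I when they sense viral or misplaced nucleic acid. Type I interferon binds the receptor of Ifnar1 and Ifnar2, and a complex that holds Stat2 and Irf9 then binds interferon-stimulated response elements (ISREs) near its target genes, while type II interferon acts through gamma-activated sites (GAS). The targets include antiviral effectors, interferon-inducible GTPases and the machinery that presents peptides on MHC class I molecules, and endothelial cells (ECs) are among the cells that respond.

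The promoters of 4 target genes are shown because 3 of them defined the members and the other, outside the rule, is a GTPase gene described below. All 4 hold a match to the letters searched, which other windows read here do not. Each window holds 300 bases around a start site, most of them before it (RefSeq, GRCm38.p6), and is written 5' to 3' on the strand of the gene. Capitals mark the ISRE letters searched on both strands, GAAA, any 2 bases and GAAA, which read TTTC, any 2 bases and TTTC on the other strand. Rsad2, Ifit1 and Isg15 belong to the 10 genes of the rule and Gbp5 does not.
Rsad2, chr12:26456403-26456702, minus strand: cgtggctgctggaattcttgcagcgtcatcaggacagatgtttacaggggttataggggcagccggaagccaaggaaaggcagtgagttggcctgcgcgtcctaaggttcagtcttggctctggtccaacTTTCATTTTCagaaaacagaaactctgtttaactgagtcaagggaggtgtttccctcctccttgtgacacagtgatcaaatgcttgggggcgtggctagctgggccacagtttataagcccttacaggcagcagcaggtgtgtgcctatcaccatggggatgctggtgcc
Ifit1, chr19:34640639-34640938, plus strand: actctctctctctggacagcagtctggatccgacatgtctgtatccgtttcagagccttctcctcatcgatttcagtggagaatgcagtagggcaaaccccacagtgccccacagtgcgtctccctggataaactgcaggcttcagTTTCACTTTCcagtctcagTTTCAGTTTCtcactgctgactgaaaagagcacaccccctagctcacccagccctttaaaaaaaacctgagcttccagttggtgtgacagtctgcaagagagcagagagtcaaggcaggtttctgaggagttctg
Isg15, chr4:156200769-156201068, minus strand: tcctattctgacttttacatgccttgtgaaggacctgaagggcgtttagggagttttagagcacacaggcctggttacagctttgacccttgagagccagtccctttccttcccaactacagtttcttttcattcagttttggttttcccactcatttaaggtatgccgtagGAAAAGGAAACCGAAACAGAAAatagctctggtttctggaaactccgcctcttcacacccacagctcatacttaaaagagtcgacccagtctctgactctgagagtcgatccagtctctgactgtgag
Gbp5, chr3:142496684-142496983, plus strand: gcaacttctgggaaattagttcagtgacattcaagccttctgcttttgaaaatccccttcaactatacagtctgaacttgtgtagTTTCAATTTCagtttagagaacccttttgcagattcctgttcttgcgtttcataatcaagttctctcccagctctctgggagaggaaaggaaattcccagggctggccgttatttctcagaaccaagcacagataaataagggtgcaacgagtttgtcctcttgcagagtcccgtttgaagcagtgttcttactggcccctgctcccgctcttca
Isg15 held 3 overlapping matches, Ifit1 held 2, and Rsad2 and Gbp5 held 1 each. Among all 32851 windows of the same length, 3.44% held a match. Of the 10 rule genes, 7 had a window and 5 of these held a match, while Ifit2 and Oasl2 held none. Of windows also read outside the rule, those of Ifi44, Tap1, Ube2l6 and Rnf213 held none and that of Stat2 held 1. Of 156 further genes of interferon pathways, 118 had a window and 54 held a match, among them 9 of 10 GTPases. The GAS letters, TTC, any 3 bases and GAA, were found in 8.3% of all windows and in those of 5 of the GTPases. A match is a run of letters and not a measured site.

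The members made up 14.4% (667 of 4634, 13.4 to 15.4), 15.7% (741 of 4706, 14.7 to 16.8) and 9.65% (169 of 1751, 8.31 to 11.1) of the endothelial nuclei. The libraries differed in depth, and a shallower nucleus reaches 3 UMIs less often. After each nucleus was thinned to 500 UMIs, leaving out 1266, 1896 and 1143 shallower endothelial nuclei, the shares were 8.88% (7.94 to 9.89), 8.68% (7.67 to 9.79) and 7.24% (5.31 to 9.59). The 3 intervals then overlapped, the denervated one on 608 nuclei, and the denervated share was still the lowest. The part of depth in the difference was not tested. The floating layer and the sort set which nuclei were loaded, so these are not shares of the tissue.

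The sum of the 10 genes had no gap at the threshold. Just outside it, 552, 606 and 144 nuclei had a sum of 2, and just inside it 261, 335 and 73 had a sum of 3. A sum of 6 or more was reached by 174, 129 and 29 nuclei and a sum of 10 or more by 42, 15 and 2. The highest sum in 1 nucleus was 51, 17 and 12, and the median over members was 4 in each library. The members are thus the upper range of a graded measure.

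**Figure D1:**
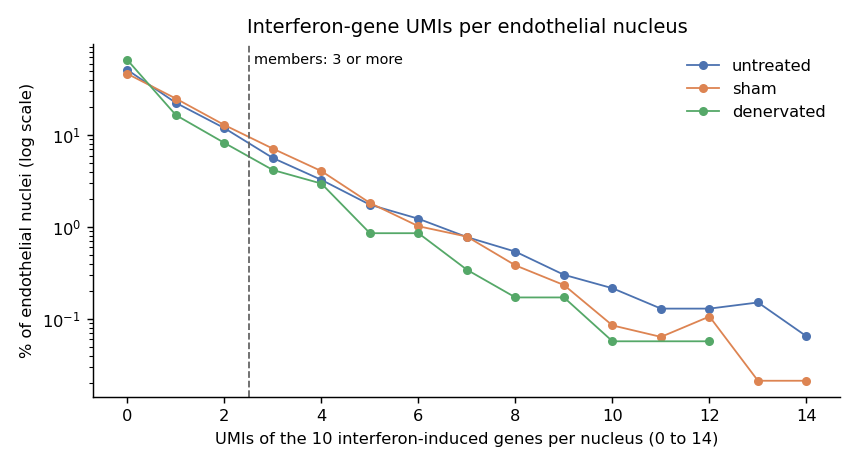
Share of endothelial nuclei (%, log scale) by their number of UMIs of the 10 interferon-induced genes (0 to 14), 1 line per library, with a dashed line at the threshold of 3 UMIs. The shares run on without a gap at the threshold, with 552 untreated nuclei at a sum of 2 and 261 at a sum of 3.

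Adipocyte nuclei, chosen with ratios of the same kind, serve as background. Of these, 0.607% (28 of 4611), 1.28% (51 of 3978) and 1.32% (70 of 5313) had 3 or more UMIs of the 10 genes, at median depths of 1834, 1410 and 945 UMIs against 708, 568 and 407 in endothelial nuclei. Of the pericyte nuclei, 0.599% (3 of 501), 1.01% (13 of 1287) and 0.226% (1 of 442) did. The summed level of the 10 genes was 1581, 1703 and 1468 CPM (UMIs of the genes scaled to a common total per group of nuclei) in all endothelial nuclei, 74.0, 132 and 178 CPM in adipocyte nuclei and 188, 208 and 225 CPM in pericyte nuclei. Endothelial nuclei thus had the highest level of the 3 types in each library, although adipocyte nuclei were deeper.

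Levels of the 10 genes in members are in part set by the choice of members, since a shallower nucleus needs a higher level to reach 3 UMIs, so libraries are set against each other below over all endothelial nuclei. Rsad2, which encodes the antiviral enzyme viperin, gave the most UMIs in members. Its level was 1748 (1642 to 1858), 1546 (1457 to 1639) and 1809 (1577 to 2065) CPM in members and 551 (526 to 576), 638 (611 to 666) and 465 (421 to 513) CPM over all endothelial nuclei, highest in sham and lowest in denervated nuclei in the latter without overlap of the intervals, and it made up 31.0, 35.7 and 31.0 percent of all UMIs of the 10 genes. A UMI of Rsad2 was found in 63.7, 69.0 and 57.4 percent of members. In adipocyte nuclei Rsad2 stood at 19.3 (16.4 to 22.4), 30.0 (25.7 to 34.8) and 56.9 (50.8 to 63.5) CPM, there highest in the denervated library. Iigp1 and Gbp7 are GTPases of cell-autonomous defence. Iigp1 stood at 879.8 (805 to 959), 826 (761 to 895) and 677 (539 to 841) CPM in members and 224 (209 to 241), 306 (288 to 326) and 178 (151 to 209) CPM over all endothelial nuclei, where the sham interval lay above both others. Gbp7 stood at 733 (665 to 806), 708 (648 to 772) and 347 (249.98 to 469) CPM in members and 235 (219 to 252), 283 (265 to 302) and 114 (93.0 to 139) CPM over all endothelial nuclei, with the denervated interval below both others in the latter, and it overlaps the gene model Gm43802 on the same strand. Tgtp2, a GTPase of the same family as Iigp1, had 256, 212 and 116 CPM in members and 68.2 (59.7 to 77.5), 76.7 (67.5 to 86.8) and 26.3 (16.7 to 39.5) CPM over all endothelial nuclei, where the denervated interval lay below both others.

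The RNA-binding effectors Ifit1 and Ifit2 and the ubiquitin-like modifier Isg15 had lower levels than Rsad2. Ifit1 had 379 (331 to 433), 179 (150.02 to 213) and 330.3 (236 to 449.8) CPM. Isg15 had 176 (144 to 213), 60.3 (43.8 to 80.9) and 281 (194 to 392) CPM, and Ifit2 had 142 (113 to 176), 54.8 (39.1 to 74.6) and 149 (88.1 to 235) CPM. Over all endothelial nuclei Ifit1 stood at 78.0 (69.0 to 88.0), 62.6 (54.3 to 71.8) and 75.5 (58.4 to 96.0) CPM, where the sham interval overlaps both others. Isg15 stood at 48.7 (41.7 to 56.7), 23.3 (18.4 to 29.2) and 70.9 (54.3 to 90.9) CPM, where the sham interval lay below both others. Ifit2 stood at 35.1 (29.1 to 41.9), 20.9 (16.2 to 26.4) and 28.6 (18.5 to 42.2) CPM, and its sham interval lay below the untreated one and overlaps the denervated one. Oasl2, of the oligoadenylate synthetase family, had 299 (256 to 347), 279 (242 to 320.5) and 256 (174 to 363) CPM in members, with intervals that overlap, and 77.8 (68.7 to 87.6), 114 (103 to 126) and 65.2 (49.4 to 84.4) CPM over all endothelial nuclei, where the sham interval lay above both others.

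Gvin1 (chr7:106156556-106215326) and Gm4070 (chr7:105895139-105953967) encode very large interferon-inducible GTPases and lie on the minus strand (GRCm38). Gvin1 had 560.3 (501 to 624), 256 (221 to 296) and 1057 (882 to 1257) CPM in members and Gm4070 473 (419 to 532), 214 (181 to 249.95) and 818 (664 to 995) CPM. Over all endothelial nuclei Gvin1 stood at 147 (135 to 160.5), 96.9 (86.5 to 108) and 253 (220.4 to 288) CPM and Gm4070 at 116 (105 to 128), 81.9 (72.4 to 92.3) and 191 (163 to 222) CPM, each lowest in sham and highest in denervated nuclei without overlap of the intervals. The genes are near-identical copies, reads of 1 transcript may be counted under both, and their levels are uncertain. Of the endothelial nuclei with a UMI of either gene, 45.7%, 31.2% and 50.5% held both. Of the nuclei in which both were found, 167 of 235, 106 of 127 and 80 of 106 had equal numbers of both. With few UMIs per nucleus, equal numbers do not show that reads were counted under both, which was not tested. Together they gave 18.3%, 10.8% and 32.1% of the UMIs of the 10 genes. With the pair counted once, 601, 709 and 144 nuclei were members.

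**Figure D2:**
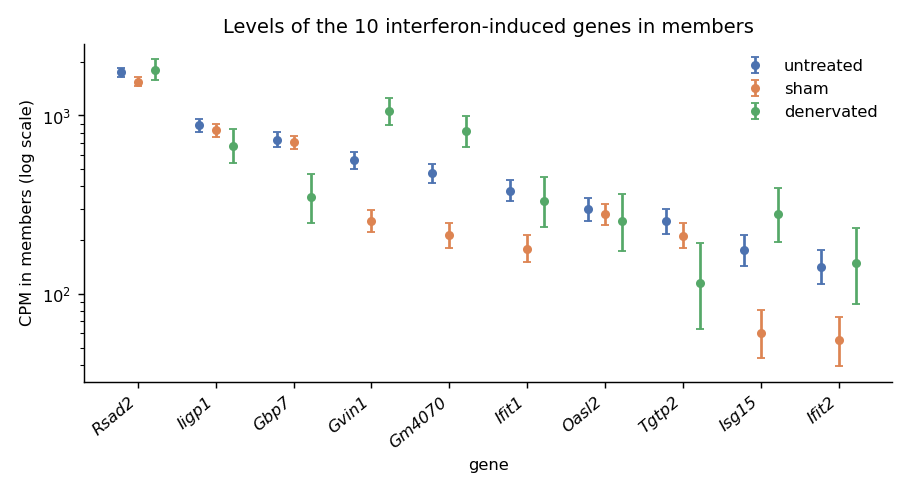
Level of each of the 10 genes in members (CPM, log scale, bars are exact Poisson 95% intervals), 1 point per library. Gvin1 and Gm4070 range from 256 and 214 CPM in sham to 1057 and 818 CPM in denervated members. These levels are in part set by the choice of members. Over all endothelial nuclei, not shown, they range from 96.9 and 81.9 CPM in sham to 253 and 191 CPM in denervated nuclei.

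Members rested on few genes each. UMIs came from 1 gene alone in 13.2%, 17.5% and 11.2% of members, from 3 or more genes in 54.7%, 48.7% and 52.7% and from 5 or more in 11.2%, 4.86% and 5.92%. Without Rsad2, 65.2%, 52.4% and 62.7% of members still had 3 UMIs. At least 1 of the markers Ifit1, Oasl2, Gvin1 and Rsad2 was found in 88.9%, 87.0% and 94.7%.

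Whether the genes occur together can be read without the threshold, over all endothelial nuclei. An Ifit1 UMI was found in 177, 169 and 54 of them. Rsad2 was found in 59.9% (52.3 to 67.2), 41.4% (33.9 to 49.2) and 42.6% (29.2 to 56.8) of these nuclei and in 23.5% (22.2 to 24.7), 27.5% (26.2 to 28.8) and 13.8% (12.2 to 15.5) of those without Ifit1. Oasl2 was found in 26.6% (20.2 to 33.7), 15.98% (10.8 to 22.4) and 9.26% (3.08 to 20.3) with Ifit1 and in 3.75% (3.21 to 4.35), 6.02% (5.34 to 6.75) and 2.53% (1.84 to 3.40) without. The intervals with and without Ifit1 were apart for Rsad2 in each library and for Oasl2 in untreated and sham nuclei, and they overlap for Oasl2 in denervated nuclei, on 5 nuclei with both genes. For the other rule genes they overlap for Ifit2 (1.31 to 7.57 against 0.82 to 1.45) and Tgtp2 in sham and Gbp7 in denervated nuclei. Elsewhere they were apart, with the gene found more often with Ifit1. The nuclei with Ifit1 were also deeper, with medians of 832, 703 and 474 UMIs against 703, 563 and 404, and the part of depth was not tested.

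Interferon genes outside the rule were higher in members than in comparison nuclei, least so in the sham library. Their summed level was 18475 against 11846 CPM in untreated, 16630.5 against 14398 CPM in sham and 18895 against 12626 CPM in denervated nuclei. The log2 ratios were 0.64 (0.61 to 0.68), 0.21 (0.17 to 0.24) and 0.58 (0.51 to 0.65), and 0.65, 0.29 and 0.58 with comparison nuclei matched on depth. Of the 94, 99 and 86 such genes with at least 10 UMIs, 87, 81 and 76 had a ratio above 0. The median log2 ratios were 0.76, 0.33 and 0.59, beside -0.05, -0.03 and -0.03 over all genes.

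A gene was called where its level differed at least 2-fold. Among all genes compared, 1.92%, 2.51% and 4.2% were at least 2-fold higher in members and 3.08%, 2.76% and 5.26% at least 2-fold lower. Of the interferon genes outside the rule, 35 of 88, 8 of 97 and 12 of 60 were at least 2-fold higher and 0, 0 and 1 at least 2-fold lower. The sham count lies closest to its background. Genes with the ISRE letters in their window had median log2 ratios of 1.06, 0.37 and 0.71 (28, 30 and 27 genes), beside 0.59, 0.28 and 0.56 (47, 49 and 45 genes) for those with a window and no match.

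**Figure D3:**
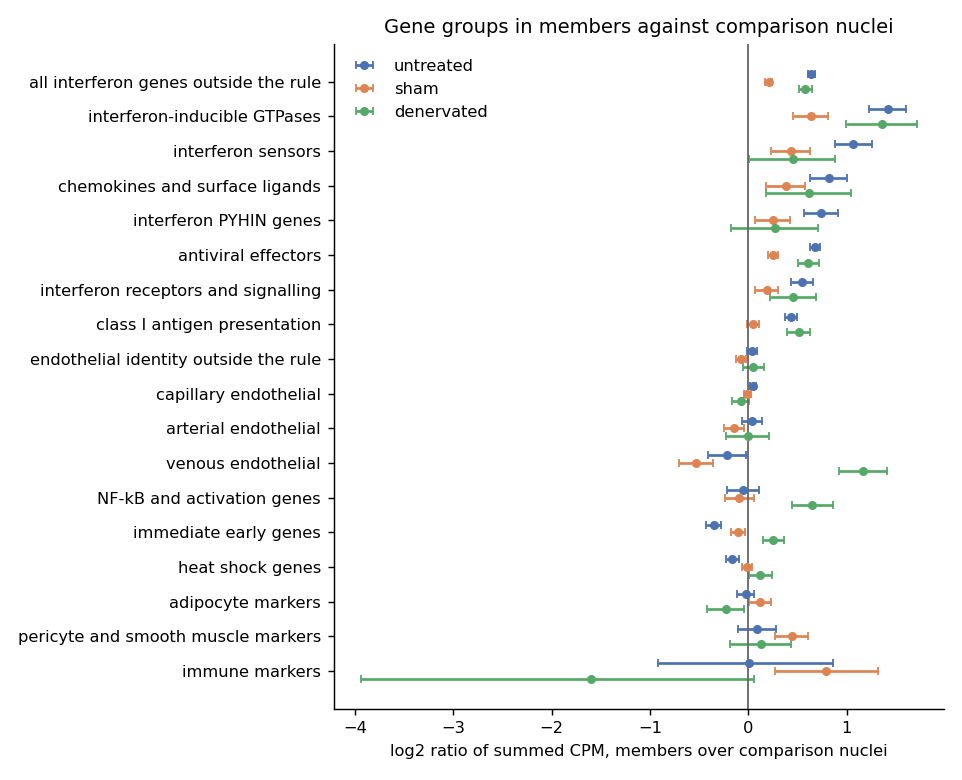
Log2 ratio of the summed level of gene groups, members over comparison nuclei, by library (bars are exact conditional binomial 95% intervals). All interferon genes outside the rule lie at 0.64, 0.21 and 0.58, and the venous group at -0.21, -0.53 and 1.17.

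Among the genes of the interferon signal, Stat2 had 243 against 89.8 CPM in untreated, 160.3 against 124 CPM in sham and 107 against 71.2 CPM in denervated nuclei, or log2 ratios of 1.43 (1.09 to 1.78), 0.37 (0.01 to 0.73) and 0.59 (-0.44 to 1.54). Irf9, the DNA-binding subunit of the same complex, had 1.04 (0.65 to 1.42), 0.38 (-0.02 to 0.77) and 0.69 (-0.11 to 1.43). Both were thus above 0 in each library, with intervals that include 0 in some. Irf1, a transcription factor that acts on GTPase and MHC genes, had 0.54 (0.26 to 0.81), 0.26 (-0.04 to 0.56) and 0.84 (0.34 to 1.33). The kinase gene Jak1 gave -0.08, -0.05 and 0.37 and the receptor gene Ifngr1 0.24, -0.19 and 0.50, all with intervals that include 0. Usp18, which shuts off signalling at the type I receptor, had 17, 24 and 6 UMIs in members and log2 ratios of 1.71 (0.61 to 2.85), 0.94 (0.04 to 1.86) and 3.69 (1.20 to 7.03). The other feedback genes, Socs1 and Socs3, of the suppressors of cytokine signalling, had -0.15, 1.24 and 2.10 and -0.57, 0.30 and 1.62, with intervals that include 0 (3, 7 and 2 UMIs of Socs1 and 6, 27 and 5 of Socs3 in members), so that 2 of the 3 feedback genes were below 0 in untreated nuclei.

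Of the sensors of viral RNA, Eif2ak2, a kinase that halts translation on double-stranded RNA, had 222 against 56.9 CPM in untreated, 90.4 against 57.0 CPM in sham and 182 against 77.0 CPM in denervated nuclei, or log2 ratios of 1.96 (1.57 to 2.37), 0.66 (0.16 to 1.17) and 1.24 (0.42 to 2.02). Ddx58, the gene of RIG-I, had 0.67 (0.30 to 1.02), 0.22 (-0.17 to 0.60) and 0.15 (-0.75 to 0.96). Ifih1, the gene of MDA5, had 1.19 (0.67 to 1.71), 0.48 (-0.08 to 1.03) and -0.36 (-2.35 to 1.20) on 60, 53 and 4 UMIs in members. The denervated values of these sensors rest on few UMIs. Oasl1, a relative of Oasl2, had 25, 24 and 4 UMIs in members and log2 ratios of 5.08 (3.07 to 8.20), 1.53 (0.52 to 2.59) and 3.10 (0.30 to 6.57). Over the whole list, 9 of 10, 9 of 10 and 3 of 6 genes with at least 10 UMIs had a ratio above 0.

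Of the antiviral effectors with at least 10 UMIs, 38 of 38, 35 of 38 and 34 of 36 had a ratio above 0, and 17 of 36, 3 of 37 and 6 of 27 compared genes were at least 2-fold higher. The summed log2 ratios were 0.68 (0.63 to 0.73), 0.25 (0.20 to 0.30) and 0.61 (0.51 to 0.72). Slfn5, of the Schlafen family, was the most abundant and had 0.28 (0.18 to 0.39), 0.15 (0.03 to 0.26) and 0.13 (-0.13 to 0.39). Ly6e, a surface protein that acts on virus entry, had 1199 against 764 CPM in untreated, 918 against 930.3 CPM in sham and 1528 against 833 CPM in denervated nuclei, so that its sham levels were nearly equal. Its log2 ratios were 0.65 (0.51 to 0.79), -0.02 (-0.16 to 0.12) and 0.87 (0.62 to 1.13). The ubiquitin ligase gene Rnf213 had 1.498 (1.19 to 1.80), 0.83 (0.54 to 1.12) and 1.10 (0.39 to 1.78). Sp100, a component of nuclear bodies, had 0.79 (0.61 to 0.96), 0.13 (-0.03 to 0.29) and 0.57 (0.14 to 0.98). The TRIM ligase genes had 0.59 (0.30 to 0.88), 0.34 (0.10 to 0.58) and 0.46 (-0.09 to 0.98) for Trim30a and 0.15, 0.03 and 0.19 for Trim25, the latter with intervals that include 0.

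The interferon-inducible GTPases act on the vacuoles of intracellular pathogens. Their summed level was 809.7 against 303 CPM in untreated, 677 against 436 CPM in sham and 867 against 339 CPM in denervated nuclei, with log2 ratios of 1.42 (1.23 to 1.61), 0.63 (0.46 to 0.81) and 1.36 (0.99 to 1.71). Each of the 7, 6 and 6 genes with at least 10 UMIs had a ratio above 0. Gbp5, whose promoter is printed above, had 162 against 57.5 CPM in untreated, 127 against 68.4 CPM in sham and 215 against 51.9 CPM in denervated nuclei, or log2 ratios of 1.496 (1.07 to 1.93), 0.90 (0.46 to 1.34) and 2.05 (1.21 to 2.88). Gbp2 had 1.10 (0.62 to 1.57), 0.46 (0.04 to 0.89) and 0.71 (-0.33 to 1.67) and Gbp3 1.60 (0.96 to 2.24), 0.88 (0.32 to 1.43) and 3.10 (1.70 to 4.65), on 46, 60 and 14 UMIs of Gbp3 in members. Irgm1, a regulator of these GTPases, had 1.54 (0.87 to 2.22), 0.68 (0.02 to 1.34) and 0.64 (-1.46 to 2.40). Irgm2 had 2.596 (2.03 to 3.19), 1.08 (0.60 to 1.58) and 1.18 (-0.16 to 2.43) and Gbp8 0.98 (0.65 to 1.32), 0.22 (-0.13 to 0.55) and 1.03 (0.42 to 1.61). Irgm2 overlaps Igtp, and Gbp8 overlaps Gbp4 and Gbp9, on the same strand of the annotation, so the counts of both are uncertain. Of the 19 GTPase genes searched for, 7, 8 and 8 were listed and read, and the others, such as Igtp and Gbp4, were not analysed here. Mndal, which gave most UMIs of the PYHIN sensors of DNA and overlaps Ifi203 and Ifi211, which makes its counts uncertain too, had 0.73 (0.56 to 0.90), 0.22 (0.04 to 0.41) and 0.21 (-0.26 to 0.65).

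Genes of MHC class I presentation were higher in members of the untreated and denervated libraries and nearly level in sham. Their summed level was 5021 against 3714 CPM in untreated, 4966 against 4801 CPM in sham and 6491 against 4540.3 CPM in denervated nuclei, with log2 ratios of 0.44 (0.37 to 0.50), 0.05 (-0.01 to 0.11) and 0.52 (0.40 to 0.63). The heavy chain genes H2-D1 and H2-K1 had 0.37 (0.24 to 0.50), -0.02 (-0.14 to 0.10) and 0.42 (0.16 to 0.67), and 0.49 (0.33 to 0.66), -0.03 (-0.16 to 0.09) and 0.42 (0.15 to 0.69). B2m, the light chain, had 0.41 (0.27 to 0.55), 0.09 (-0.05 to 0.23) and 0.54 (0.28 to 0.80). Tap2, of the peptide transporter, had 0.64 (0.28 to 0.999), 0.34 (-0.03 to 0.71) and 0.76 (0.10 to 1.39), and Tapbp, which holds the transporter to class I molecules, 0.18, 0.10 and 0.52. The sham comparison nuclei had more H2-K1 than the untreated ones, 1080.2 against 551 CPM. Class II genes gave 15, 43 and 5 UMIs in members, with log2 ratios of 1.64 (0.47 to 2.83), 0.59 (-0.04 to 1.22) and 0.18 (-1.60 to 1.65).

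Among surface ligands, Cd274, the gene of PD-L1, had 246 against 85.97 CPM in untreated, 139.7 against 71.7 CPM in sham and 140.4 against 109.7 CPM in denervated nuclei, or log2 ratios of 1.52 (1.17 to 1.87), 0.96 (0.54 to 1.39) and 0.36 (-0.52 to 1.16). Tnfsf10, the death ligand TRAIL, had 0.60 (0.29 to 0.91), 0.19 (-0.14 to 0.52) and 0.96 (0.27 to 1.61). The T cell chemokine genes were sparse. Cxcl9 had 0.54 (0.07 to 1.01), 0.28 (-0.16 to 0.72) and 0.10 (-1.94 to 1.73), and Cxcl10 had 5, 18 and 4 UMIs in members. Of the 21 interferon genes searched for, 1, 0 and 1 were listed, Ifnk in untreated and Ifng in denervated nuclei with 0 UMIs in members, and the others were not analysed here.

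The level was also read across all endothelial nuclei by their sum of the 10 genes, at 0, 1, 2, 3 to 5, and 6 or more. The interferon genes outside the rule stood at 11846, 13009.5, 14409.8, 16803 and 22673 CPM in untreated nuclei. In sham nuclei the same steps gave 14398, 15503, 15577, 16108 and 18502 CPM, and in denervated nuclei 12626, 14452, 15386, 17332 and 26475 CPM. The level was higher at each step in each library, so nuclei just below the threshold were intermediate. In sham nuclei the intervals at 1 (15236 to 15774) and 2 (15225 to 15936) overlap, as do those at 2 and at 3 to 5 (15781 to 16441). Those steps are thus not resolved in sham. There the GTPases (479 and 462 CPM) and the class I genes (5083 and 4776 CPM) were lower at 2 than at 1. Single genes were less even. Stat2 stood at 89.8, 99.8, 118, 208 and 329.8 CPM in untreated, 124, 155, 145, 163 and 151 CPM in sham and 71.2, 84.5, 62.5, 89.6 and 193 CPM in denervated nuclei, so that only the untreated values were higher at each step. The GTPases stood, at the lowest and the highest step, at 303 and 1205 CPM in untreated, 436 and 923 CPM in sham and 339 and 1449 CPM in denervated nuclei. Endothelial genes that the rule did not use, such as Cdh5 and Tie1, kept to 6318 to 7467 CPM over all steps and libraries.

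**Figure D4:**
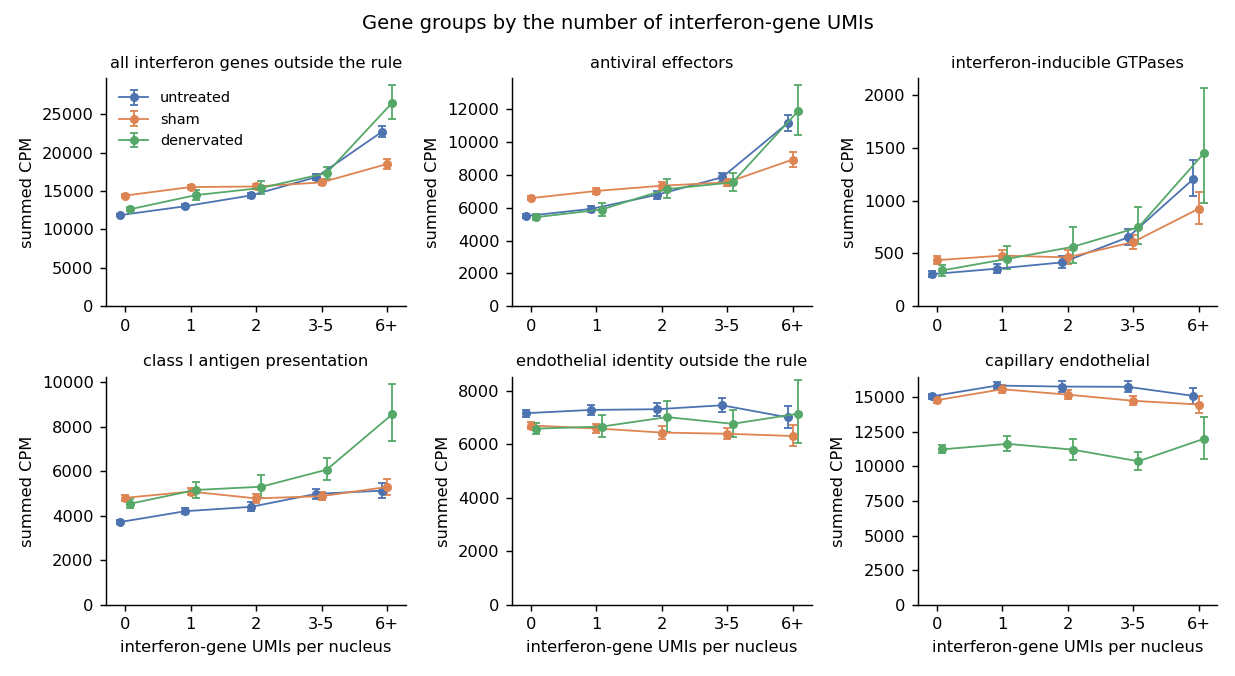
Summed level (CPM, from 0, bars are exact Poisson 95% intervals) of 6 gene groups in endothelial nuclei, by their UMIs of the 10 rule genes on the horizontal axis, 1 line per library. All interferon genes outside the rule go from 11846 to 22673 CPM in untreated and from 14398 to 18502 CPM in sham nuclei.

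Members whose UMIs came from Rsad2 alone (63, 84 and 16 nuclei) had log2 ratios of 0.30 (0.19 to 0.40), 0.05 (-0.05 to 0.14) and 0.22 (-0.04 to 0.47) for the interferon genes outside the rule. Members with UMIs of 5 or more rule genes (75, 36 and 10 nuclei) had 1.11 (1.04 to 1.18), 0.56 (0.46 to 0.65) and 1.26 (1.03 to 1.47). The ratio was thus larger where more of the 10 genes were found.

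At least 2-fold higher in all 3 libraries was 1 of 4896 genes compared, or 0.0204% of them, and 0 were at least 2-fold lower. This gene was Ifi44, an interferon-induced protein, at chr3:151730922-151749960 on the minus strand (GRCm38). It is named for this count, after its values were seen. With a rule sum of at least 5, and likewise with a minimum of 10 expected UMIs, 0 genes were called higher, and over the alternatives that keep all 3 libraries the count was 0 to 5. Ifi44 had 88.8 against 15.8 CPM in untreated, 72.6 against 16.3 CPM in sham and 157 against 40.4 CPM in denervated nuclei, from 52, 53 and 19 UMIs in members. The log2 ratios were 2.49 (1.78 to 3.24), 2.16 (1.39 to 2.98) and 1.96 (0.98 to 2.92). Its promoter window held no match to the ISRE letters.

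Outside the interferon lists, the 12 genes with the highest ratio in the library where it was least were Ube2l6, Slc22a3, Gm12185, Lgals9, Dpy19l1, S100a10, Ndrg2, Sp110, Nif3l1, Cd63, Rpia and Tapbpl. Against nuclei matched on depth the denervated ratio was -0.13 for Slc22a3, which had 21, 14 and 8 UMIs in members, and -0.13 for Rpia. The other ratios of these 12 genes kept above 0. The genes were picked for high ratios in the same members, and the matched nuclei are part of the comparison nuclei, so this shows little. The intervals of Dpy19l1 include 0 in each library (-0.03 to 1.22, -0.23 to 1.41 and -0.71 to 1.71). Ube2l6, the enzyme that conjugates Isg15 to proteins, had 1.43 (0.88 to 1.99), 0.87 (0.01 to 1.73) and 1.15 (0.11 to 2.14). Lgals9, a galectin, had 0.86 (0.40 to 1.30), 0.60 (0.15 to 1.05) and 1.67 (0.88 to 2.45). Ube2l6, Lgals9 and Sp110 are known as interferon-induced genes, although the lists did not hold them. Sp110, a relative of Sp100, had 1.07 (0.54 to 1.60), 0.45 (-0.04 to 0.94) and 0.41 (-0.85 to 1.53), and Tapbpl, a peptide editor of MHC class I, 0.92 (0.39 to 1.44), 0.75 (-0.08 to 1.57) and 0.32 (-0.94 to 1.42). Gm12185, which overlaps the GTPase gene Tgtp1, had 0.92 (0.66 to 1.19), 0.73 (0.42 to 1.05) and 0.65 (-0.12 to 1.38) and is uncertain. Ranked by the ratio in the library where it was greatest, the 8 lowest genes were Bcl2, Zfp219, Ell2, Cfap20, Slc16a1, Cdc34, Nde1 and Cdc16. These too were picked by their values, and the intervals of Zfp219, Ell2, Slc16a1, Cdc34 and Nde1 include 0 in each library. Bcl2, which restrains apoptosis, had -0.68 (-1.29 to -0.12), -0.93 (-2.12 to 0.13) and -0.82 (-2.53 to 0.52).

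General endothelial and capillary genes were near level. Over the endothelial genes outside the rule the summed log2 ratio was 0.03 (-0.02 to 0.08), -0.07 (-0.12 to -0.02) and 0.05 (-0.06 to 0.16). Tie1, a co-receptor of angiopoietin signalling, had 0.19 (0.07 to 0.31), -0.13 (-0.26 to -0.01) and 0.18 (-0.09 to 0.43). Over the capillary genes it was 0.05 (0.01 to 0.08), -0.01 (-0.04 to 0.02) and -0.08 (-0.17 to 0.01), and Cd36, the fatty acid carrier, had 5514 against 5185 CPM in untreated, 4239 against 4354 CPM in sham and 3609 against 3459 CPM in denervated nuclei. Over the arterial genes it was 0.04 (-0.06 to 0.13), -0.15 (-0.25 to -0.04) and -0.01 (-0.22 to 0.21), and -0.02 (-0.14 to 0.10), -0.07 (-0.19 to 0.06) and 0.36 (0.06 to 0.66) against nuclei matched on depth, which puts the denervated value above 0. Kitl, the ligand SCF that the study followed from ECs to BAs, had 1227 against 1235 CPM in untreated, 1093 against 1123 CPM in sham and 1065 against 1112 CPM in denervated nuclei, with log2 ratios of -0.01 (-0.14 to 0.11), -0.04 (-0.17 to 0.09) and -0.06 (-0.35 to 0.22).

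The venous group differed, and in opposite directions. Its genes stood at 499 against 578 CPM in untreated, 555 against 801 CPM in sham and 1825 against 812 CPM in denervated nuclei, with log2 ratios of -0.21 (-0.41 to -0.02), -0.53 (-0.70 to -0.36) and 1.17 (0.93 to 1.41). With a rule sum of at least 5 the denervated ratio was 0.24. In denervated nuclei the group stood at 2012 CPM at a sum of 3 to 5 and at 918 (553 to 1433) CPM, on 19 UMIs, at 6 or more, the latter an interval that holds the level of the comparison nuclei. Plvap, which forms the diaphragms of endothelial openings, had 17.1 against 47.4 CPM in untreated, 52.0 against 141 CPM in sham and 421 against 102 CPM in denervated nuclei, or -1.47 (-2.59 to -0.51), -1.44 (-1.98 to -0.92) and 2.05 (1.46 to 2.63). Both values were below 0 in untreated and sham and above 0 in denervated nuclei. Over the alternatives the Plvap ratio was -3.06 to -0.91 in untreated, -2.13 to -0.44 in sham and 0.85 to 2.32 in denervated nuclei, and without the deepest sham member, which held 10 of the 38 UMIs, the sham ratio was -1.87. Lrg1, a secreted glycoprotein, had -0.41 (-1.59 to 0.63), -0.99 (-1.67 to -0.35) and 1.66 (1.10 to 2.21). Vwf, the gene of von Willebrand factor and named after its values were seen, had -0.35 (-1.61 to 0.76), -1.63 (-2.77 to -0.64) and 2.27 (1.22 to 3.34) on 9, 10 and 18 UMIs in members. Nr2f2, a transcription factor of venous fate, had -0.24 (-0.71 to 0.21), -0.31 (-0.70 to 0.07) and 1.42 (0.64 to 2.18), and the receptor gene Ephb4 -0.02, -0.14 and 0.18, with intervals that include 0.

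Few nuclei carried the denervated values. The 51 Plvap UMIs came from 16 of 169 members, 13 of them from 1 nucleus, and the 18 Vwf UMIs from 5 members, 8 of them from 1. Without the deepest denervated member the log2 ratio was 1.68 for Plvap, 1.36 for Lrg1, 1.48 (0.18 to 2.71) for Vwf, 0.92 for Nr2f2 and 0.83 for the group, and without the 10 deepest 1.12, 1.46, 1.78, 0.72 and 0.69. Each of these values was smaller than with all members. The interval of Nr2f2 then included 0, with 0.69 (-0.34 to 1.62) without the 5 and 0.72 (-0.35 to 1.68) without the 10 deepest. Against comparison nuclei matched on depth the group stood at 0.75, and with each nucleus weighted equally at 0.58. Plvap in denervated nuclei was 498 CPM at a sum of 3 to 5 and 48.3 CPM, on 1 UMI, at 6 or more. The share of members among endothelial nuclei with a Plvap UMI against those without was 10.8% (5.08 to 19.6) against 14.5% (13.4 to 15.5) in untreated, 10.4% (5.95 to 16.6) against 15.9% (14.9 to 17.0) in sham and 27.1% (16.4 to 40.3) against 9.04% (7.72 to 10.5) in denervated nuclei, with intervals that overlap in untreated and sham nuclei. The same shares were 9.68% against 14.5%, 18.3% against 15.7% and 14.1% against 9.40% for Lrg1, 15.99% against 14.3%, 17.2% against 15.6% and 22.6% against 9.18% for Nr2f2 and 22.6% against 14.3%, 9.09% against 15.9% and 23.8% against 9.48% for Vwf, with intervals that overlap except for Nr2f2 in denervated nuclei. The denervated nuclei with Plvap were deeper, with a median of 935 UMIs against 401, and the part of depth was not tested.

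**Figure D5:**
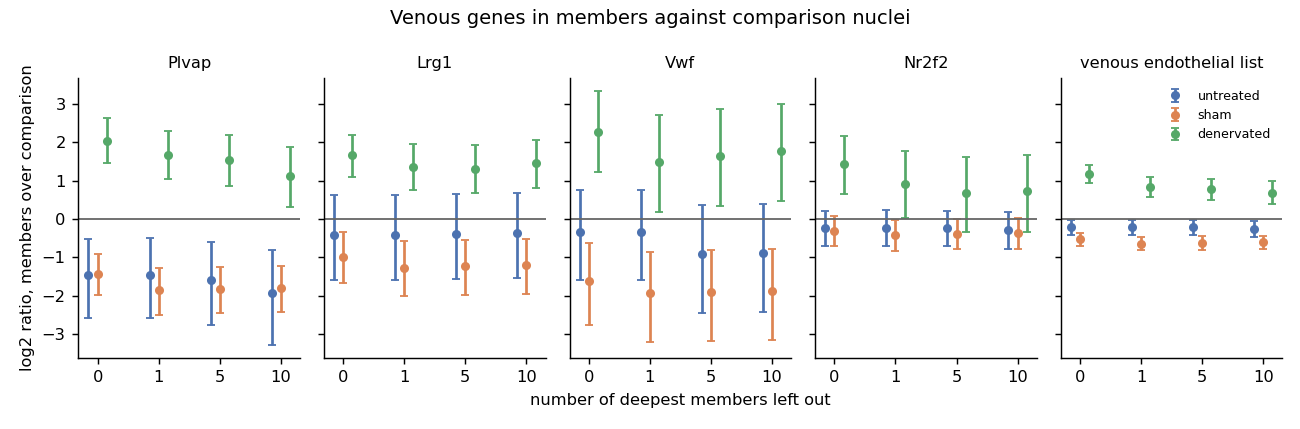
Log2 ratio, members over comparison nuclei, of Plvap, Lrg1, Vwf, Nr2f2 and the venous group, against the number of deepest members left out, 1 point per library (bars are exact conditional binomial 95% intervals). The denervated Plvap ratio goes from 2.05 with all members to 1.12 without the 10 deepest.

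Genes of inflammatory activation were also higher in denervated members, by less where deep nuclei weigh less. The summed log2 ratios of this list were -0.05 (-0.21 to 0.11), -0.09 (-0.24 to 0.05) and 0.65 (0.44 to 0.86). The list shares Icam1 and Vcam1 with the venous group and was read in the same members, so it is no separate observation. Nfkbia, an inhibitor that NF-kB itself induces, had 261 against 252 CPM in untreated, 201 against 228 CPM in sham and 908 against 500.2 CPM in denervated nuclei, or 0.06 (-0.22 to 0.33), -0.18 (-0.48 to 0.11) and 0.86 (0.53 to 1.19). Without the 10 deepest denervated members the list stood at 0.45 and Nfkbia at 0.56, and with each nucleus weighted equally at 0.28 and 0.49. Nfkb1, a subunit of NF-kB, had -0.19, 0.05 and -0.26, with intervals that include 0. Immediate early genes had -0.35 (-0.43 to -0.28), -0.10 (-0.17 to -0.03) and 0.25 (0.15 to 0.36), and 0.00, -0.07 and 0.39 against nuclei matched on depth. Heat shock genes had -0.16 (-0.23 to -0.10), -0.01 (-0.06 to 0.04) and 0.12 (0.00 to 0.24), and 0.09 (0.01 to 0.17), 0.08 (0.03 to 0.14) and 0.18 (0.02 to 0.33) against nuclei matched on depth, so that the untreated and sham values turned their direction.

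Adipocyte RNA was found in most members and immune RNA in few. The immune markers gave 16, 64 and 3 UMIs in members, or 27.3, 87.7 and 24.8 CPM against 27.2, 50.5 and 75.0 CPM in comparison nuclei, with 8 of 15, 4 of 16 and 14 of 17 listed markers at 0. The macrophage gene F13a1 gave 4, 25 and 0 UMIs and the pan-leukocyte gene Ptprc, named after its values were seen, 0, 4 and 0. The log2 ratios of the immune markers were 0.01 (-0.92 to 0.87), 0.80 (0.27 to 1.32) and -1.60 (-3.94 to 0.05), so sham members held more than their comparison nuclei. An immune UMI was found in 1.20, 4.18 and 1.78 percent of members and in 1.73, 1.88 and 2.52 percent of comparison nuclei. With these nuclei left out the summed ratios of the interferon genes outside the rule were 0.64, 0.23 and 0.59. Adipocyte markers stood at 2459.9, 1529 and 2387 CPM in members, with a UMI in 83.4, 63.8 and 74.0 percent of them and in 72.3, 47.5 and 59.3 percent of comparison nuclei. Their log2 ratios were -0.03 (-0.11 to 0.06), 0.12 (0.01 to 0.23) and -0.23 (-0.42 to -0.05), and -0.08, -0.02 and -0.46 against nuclei matched on depth. Pericyte and smooth muscle markers were found in 20.5, 27.0 and 21.3 percent of members and had 0.09 (-0.11 to 0.28), 0.44 (0.27 to 0.61) and 0.13 (-0.19 to 0.43), and -0.04, -0.13 and -0.06 against nuclei matched on depth. Members also held 19, 47 and 10 UMIs of fibroblast, 7, 15 and 2 of Schwann cell, 6, 10 and 2 of lymphatic and 22, 27 and 7 of cell cycle genes. The adipocyte list holds Adipoq, Plin1, Pparg, Cidea and Ppara, and the pericyte and smooth muscle list Pdgfrb, Notch3, Abcc9 and Kcnq5. The rule capped these genes in members and comparison nuclei alike, so the values of both lists are in part set by it. The part of the markers other than immune ones in the other ratios was not tested.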

How the data were processed

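Single-nucleus RNA was measured in 3 libraries of BAT. The UMI counts deposited by the authors are whole numbers per gene and barcode, and per the file headers of the untreated and denervated tables they came from the BD Rhapsody WTA Analysis Pipeline 1.9 in its version for nuclei, with GRCm38 and GENCODE vM19 and error-corrected UMIs. The sham table has no such header. The authors went on to remove debris, ambient RNA and doublets (Seurat 4.0.6 is in the submitters' processing notes), but the counts used here precede those steps. No doublet caller was run, so doublets were limited by the ratios of endothelial to adipocyte and pericyte genes and by the sort.

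A barcode was used if it held 200 or more genes and no more than 50% of its UMIs were mitochondrial. UMIs were summed over the nuclei of each group and given as CPM with exact Poisson intervals, shares with Clopper-Pearson intervals, and ratios with exact conditional binomial intervals, all at 95%. Interval bounds cover counting error only, and nuclei are not replicates. Genes with at least 5 expected UMIs in members were compared, with 0.5 UMI added per group, and called at a log2 ratio of 1. List medians used genes with at least 10 UMIs. The text names the 10 rule genes, up to 6 genes per interferon list and up to 4 per other list by UMIs in members, and the 12 highest and 8 lowest genes outside the interferon lists. The members and lists were chosen with earlier results of these data known. In simulated data with 4889 genes compared, 50 of 50 genes 4-fold higher and 7 of 50 genes 2-fold higher in all 3 libraries were called. So were 30 of 42 genes 4-fold lower and 5 of 49 genes 2-fold lower. The simulation drew Poisson totals per group, without spread between nuclei and without choosing members by their UMIs. Its rates are therefore not the sensitivity of the calls in the data. Gene positions and overlaps came from the GENCODE annotation of GRCm38 supplied as reference, found for 335 of 339 list genes. An item withheld from the text is not reported here. Other filters, thresholds, genes of the rule and comparison nuclei were tried as alternatives. Python 3.11.15, numpy 2.4.6, scipy 1.17.1, pandas 2.3.3 and matplotlib 3.10.9 were used.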

Additional observations from a re-analysis of the deposited data

Results flagged for a closer look

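Plvap, whose product forms diaphragms of endothelial openings, had a log2 ratio of members over comparison nuclei of -1.47 in untreated, -1.44 in sham and 2.05 in denervated nuclei, with intervals on opposite sides of 0. Over the alternatives the ratio was -3.06 to -0.91, -2.13 to -0.44 and 0.85 to 2.32 in these libraries. It is listed because the denervated library went the other way from both others. The 4896 compared genes were searched for ratios past 2-fold in each library with intervals on opposite sides of 0, and Plvap alone was found. Plvap was thus picked by these same values, which are a description. The difference was not tested, since each condition had 1 library.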

How the results depend on the processing

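Among the shares, the counts of called genes, the median and summed interferon ratios, the venous ratio and the ratios of Ifi44, Rnf213, Plvap and Kitl, the ratio of Kitl crossed 0 between alternatives (-0.15 to 0.10 over the 3 libraries) and no other of these changed its direction. Ratios of some other lists and genes did so against matched nuclei, as given beside them for heat shock and pericyte genes, and with equal weights, where Vwf in untreated nuclei was 0.12 and the NF-kB list in sham 0.04. In all, 58 of the values that answer a comparison moved and 117 did not. A move meant leaving the counting interval, except for the counts of called genes, which have none and were judged by their change. Over 17 alternatives the count of higher genes moved in 10 and that of lower genes in 4. The median log2 ratio of the interferon genes outside the rule was 0.72 to 1.15 in untreated, 0.23 to 0.46 in sham and 0.42 to 1.06 in denervated nuclei. It was judged by the medians of the bounds of single genes. These are no interval of the median itself, so that it did not move by them shows little. The causes of the moves below were not tested. With at least 500 detected genes the shares of members were 19.0%, 27.9% and 17.9%, the summed log2 ratio 0.58 in untreated and 0.40 in denervated nuclei, and the sham venous ratio -0.95. With at most 10% mitochondrial UMIs the untreated summed ratio was 0.73, the sham venous ratio -0.87, and 2 genes were 2-fold higher in all libraries. With a rule sum of at least 5 the shares were 5.50%, 4.57% and 2.51%, the summed ratios 0.88, 0.34 and 0.93, the denervated venous ratio 0.24, and 0 genes were called higher. With at least 4 endothelial UMIs the sham share was 17.4%. Without nuclei holding an immune UMI 2 genes were called higher, as were 2 with totals without mitochondrial and rule genes. Against matched nuclei the sham summed ratio was 0.29, the venous ratio -0.75 in sham and 0.75 in denervated nuclei, and 5 genes were called higher. Against all nuclei with a sum under 3 the summed ratios were 0.55, 0.15 and 0.51. With each nucleus thinned to 500 UMIs the shares were 8.88%, 8.68% and 7.24%. A minimum of 10 expected UMIs left 0 genes called higher, and a minimum of 2 gave 4 higher and 2 lower. Leaving out 1 library gave 1 to 12 genes higher and 1 to 12 lower, with 11 higher without sham and 12 without the denervated library.

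The next alternatives were chosen after seeing the data. Without Rsad2 in the rule the shares were 9.39%, 8.24% and 6.05%, the summed ratio 0.71 in untreated and 0.29 in sham, and the venous ratio -0.16 in sham and 1.55 in denervated nuclei. With Gvin1 and Gm4070 counted once the share was 12.97% in untreated and 8.22% in denervated nuclei, and 2 genes were called higher. With UMIs of at least 3 different rule genes the shares were 7.88%, 7.67% and 5.08%, the summed ratios 0.82, 0.29 and 0.68, and the venous ratio -0.35 in sham and 0.79 in denervated nuclei. The denervated venous ratio was 0.77 without the 5 deepest members and 0.58 with equal weights. No paired analysis was possible because each condition had 1 library and no replicate number. The denervated members, 169 nuclei with 121091 UMIs, limit every value of that library, and genes with few UMIs have wide intervals.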

Other observations

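Genes at least 2-fold higher in members of 2 libraries were also counted. In untreated and denervated nuclei there were 11 of 4902 compared, or 0.224%, beside 1 gene, or 0.0204%, at least 2-fold lower. Of 60 interferon genes compared, 9 were higher, including Eif2ak2, Gbp5, Ifi44 and Rnf213, and 0 were lower. In untreated and sham nuclei there were 12 of 9203, or 0.13%, and as many, 12 or 0.13%, were at least 2-fold lower. Of 88 interferon genes compared, 6 were higher, including Ifi44, Irgm2 and Oasl1, and 0 were lower. In sham and denervated nuclei there was 1 of 4901, or 0.0204%, which was Ifi44, 1 of 60 interferon genes compared. Beside it 1 gene, outside these lists, was at least 2-fold lower. The libraries were read with the same rule, so these counts are no independent support for one another.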
